A study of Mus musculus with 6 samples.

Results

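The genes described here are 30 genes of cholesterol and fatty acid synthesis, measured on 2-colour microarrays in the forestomach epithelium of mice with and without a Sox2 transgene. They were found by their names in the scanner files: 17 enzymes of cholesterol synthesis, 3 regulators and 10 enzymes that make, lengthen or desaturate fatty acids, of 20401 genes tested. One of them, Msmo1, carries its older name Sc4mol in the files. The array holds 56 probes for the 30 genes. The probe used for each gene was well above background on all 6 arrays and saturated on none.

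RNA came from sheets of forestomach epithelium of control mice (K5-CreER, 3 samples) and mutant mice (K5-CreER;Rosa26Sox2/Sox2, 3 samples). CreER is a recombinase that tamoxifen switches on, here under the keratin 5 promoter of basal cells of layered epithelia, and Rosa26 is a locus used to carry transgenes. Both groups were of a mixed 129/Sv and C57/BL6 background, were given 2 doses of tamoxifen at the age of 7 weeks and are labelled as 12 weeks old. The controls thus carried the recombinase and had tamoxifen too. Each array set a sample in Cy5 against Universal Mouse Reference RNA in Cy3, a pool from 11 mouse cell lines, and no dyes were swapped. Each value is the log2 ratio of sample to reference, and a difference is the mean of the mutants minus the mean of the controls. The labels call the samples biological replicates. Nothing in them says how many mice gave each RNA.

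The forestomach is lined by a layered, keratinizing epithelium that makes its own lipids for membranes and for its surface barrier. Cholesterol is built from acetyl units through mevalonate, then squalene, then lanosterol, and the steps after lanosterol trim that ring molecule to cholesterol. The transcription factors SREBP-1 and SREBP-2, made from Srebf1 and Srebf2, switch on the genes of both pathways when sterols are low, and INSIG-1 holds them back in the endoplasmic reticulum. Fatty acid synthase makes a saturated chain, which elongases lengthen and desaturases bend by adding double bonds.

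The arrays differed among themselves beyond genotype. The 1 Sox2 probe starts at base 1846 of its transcript and gave 6.26, 6.09 and 6.38 in controls and 5.67, 5.83 and 5.95 in mutants (difference -0.43, SE 0.14, limma adjusted p = 0.143). It is not stated if RNA of the transgene includes that stretch, so the probe does not check the labels, and "mutant" below is the labels' word for a group in which this probe read lower on each array. Control 3 was hybridised on a slide of its own and scanned on another day, with 62.58% of probes above background against 73.13% to 76.18% on the other arrays, and it was dimmer, with a median signal over background of 4.81 against 12.06 to 13.13. Controls 1 and 2 shared a slide, and the 3 mutants shared another, so that slide cannot be told apart from genotype. Over the 30 genes, controls 1 and 2 differed by a mean of 0.11 and mutants 2 and 3 by 0.07, while the other pairs of arrays differed by 0.27 to 1.05. Each near-identical pair was kept as 2 samples, and results with the pairs averaged are given in the closing section.

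None of the 30 genes passed limma's test at an adjusted p of 0.05, where 577 of all 20401 genes (2.83%) did, 287 of them (1.41%) higher and 290 (1.42%) lower in the mutants. At an unadjusted p under 0.05 there were 11 of the 30 and 4870 of all genes. The 2 groups of arrays did not overlap for 16 of the 30 genes, against 38.0% of all genes. Mutants lay above controls for 4 of the 30 (19.7% of all genes) and below for 12 (18.3% of all genes). The 4 above were the desaturases, and the 12 below were 6 sterol enzymes, 1 regulator and 5 genes of the fatty acid list.

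**Figure D1:**
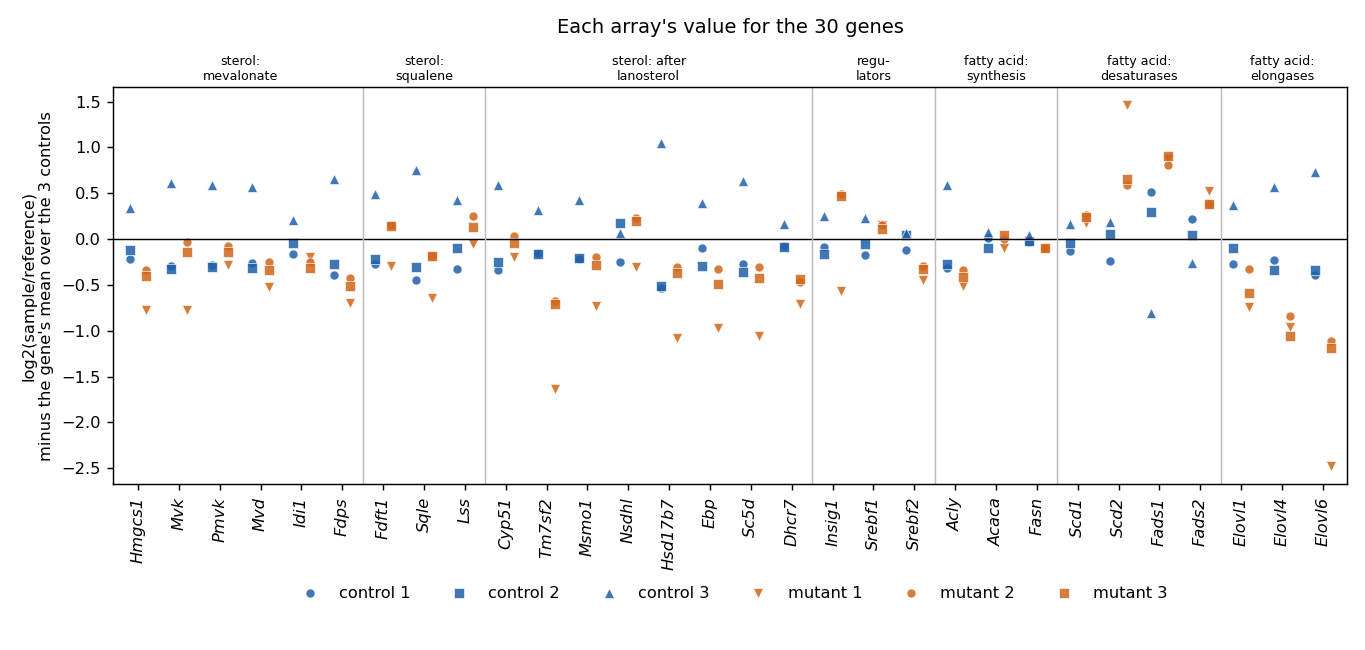
Log2 ratio of sample over reference on each of the 6 arrays, minus the gene's mean over the 3 controls, for the 30 genes in pathway order (blue, controls; orange, mutants). Control 3 (blue triangles pointing up) is the highest of the 6 arrays for 16 of 17 sterol enzymes, and mutant 1 (orange triangles pointing down) is the lowest for 13 of them.

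The 17 enzymes of cholesterol synthesis had differences from -1.0 (Tm7sf2) to 0.11 (Lss), with a median of -0.37 against 0.006 over all genes. The difference was negative for 14 of the 17, where 49.3% of all genes were negative. The groups did not overlap for 6 of them, all with the mutants below, and overlapped for 11. Of all genes 38.0% did not overlap, 18.3% with the mutants below.

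Tm7sf2, which encodes a reductase of the sterol ring, had the largest difference of the sterol enzymes. Its probe lies at chr19:6062882-6062941 in the files' build, mm9. Its log2 ratios were 3.92, 3.91 and 4.40 in controls 1 to 3 and 2.44, 3.40 and 3.37 in mutants 1 to 3. Every mutant lay below every control, and mutant 1 differed from the mean of the other mutants by -0.94. The difference was -1.0 (SE 0.30, 2.00-fold), with an adjusted p of 0.125 by limma.

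Dhcr7, the enzyme of the last step to cholesterol in one branch of the pathway, was the sterol enzyme with the smallest adjusted p. It read 1.42, 1.41 and 1.66 in controls and 0.78, 1.03 and 1.06 in mutants (probe at chr7:151034253-151034312). The groups did not overlap, and the gap between the lowest control and the highest mutant was 0.35, against ranges of 0.25 within the controls and 0.27 within the mutants. The difference was -0.54 (SE 0.14, adjusted p = 0.0969 by limma). Ebp, a sterol isomerase, read 2.19, 1.99 and 2.68 in controls and 1.32, 1.96 and 1.80 in mutants. The groups only just failed to overlap, and the difference was -0.60 (SE 0.24, adjusted p = 0.208).

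Among the other enzymes after lanosterol, Cyp51, the demethylase of lanosterol, had a difference of -0.07 (SE 0.26), with control 3 at 2.18 and the other 5 arrays at 1.25 to 1.63. Msmo1, which starts a further demethylation, had -0.40 (SE 0.24), and Nsdhl, which takes part in the same removal, 0.04 (SE 0.20). Hsd17b7, the ketoreductase of these steps, had the widest spread of the 17: 2.82, 2.84 and 4.41 in controls and 2.28, 3.05 and 2.99 in mutants. Its difference of -0.58 (SE 0.47) came with overlapping groups, since controls 1 and 2 lay below 2 of the 3 mutants. Sc5d, a sterol desaturase, read 3.64, 3.55 and 4.54 in controls and 2.85, 3.60 and 3.49 in mutants, a difference of -0.60 (SE 0.33) with overlap between control 2 and mutant 2. The adjusted p of these 5 genes lay between 0.317 and 0.918.

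The 6 mevalonate enzymes all had negative differences, of -0.55 to -0.17, none past the test. Hmgcs1, the synthase that makes HMG-CoA, read 2.47, 2.56 and 3.02 in controls and 1.91, 2.34 and 2.29 in mutants, so the groups did not overlap (difference -0.50, SE 0.20, adjusted p = 0.199). Fdps, which makes farnesyl diphosphate, read 1.52, 1.64 and 2.57 in controls and 1.21, 1.48 and 1.40 in mutants (difference -0.55, SE 0.29, adjusted p = 0.299). Control 3 lay 0.99 above the other controls for Fdps, which is more than the group difference. Idi1, the isomerase of the isoprene unit, had -0.25 (SE 0.14) with the mutants below the controls. The kinases Mvk (-0.32, SE 0.32) and Pmvk (-0.17, SE 0.26) and the decarboxylase Mvd (-0.37, SE 0.26) had overlapping groups.

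The 3 enzymes that make and close squalene had differences near 0 or small against their errors. Fdft1, squalene synthase, had 0.003 (SE 0.25), with 1.41, 1.45 and 2.16 in controls and 1.38, 1.83 and 1.82 in mutants. Sqle, the epoxidase and a rate-controlling step, had -0.34 (SE 0.34), and Lss, which closes the ring to lanosterol, 0.11 (SE 0.22). All 3 had overlapping groups.

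**Figure D2:**
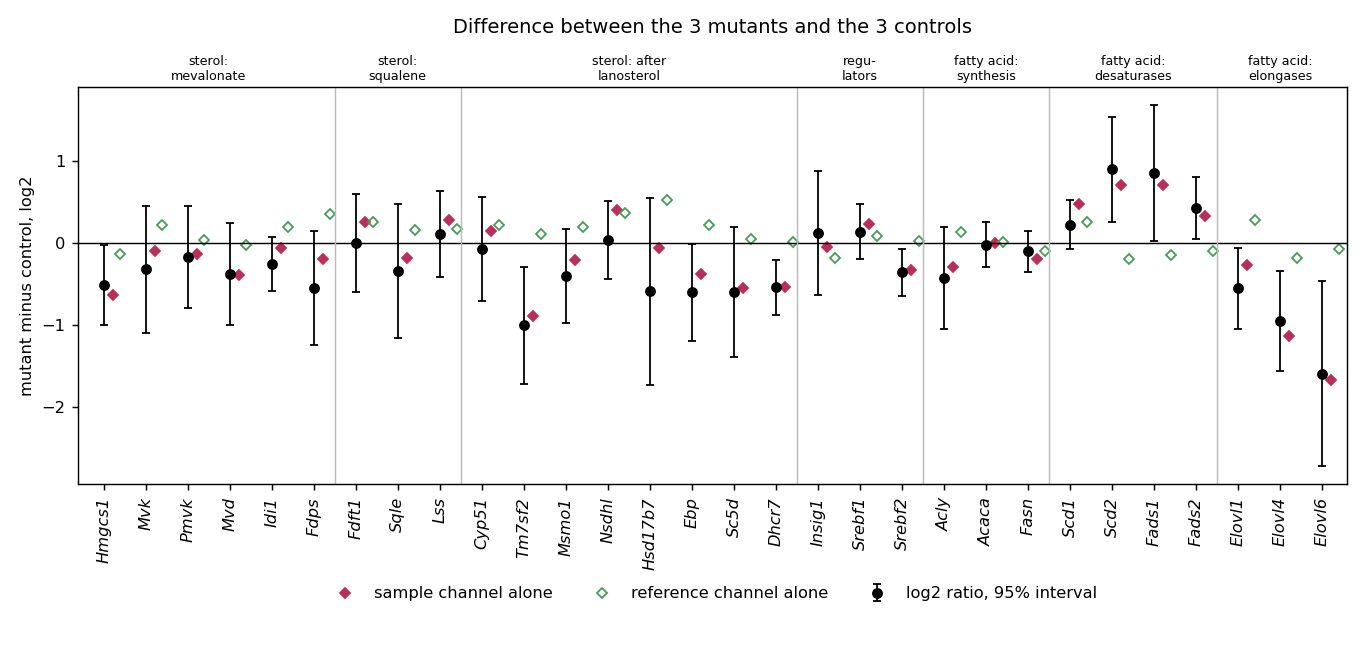
Mutant minus control for each of the 30 genes: black circles give the log2 ratio with its 95% interval from limma, filled diamonds the sample channel alone and open diamonds the reference channel alone, each a difference of 2 means over 3 arrays. The reference channel lies above 0 for 15 of 17 sterol enzymes, with a median of 0.20.

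The reference RNA is the same on every array, so its channel was looked at alone. After loess within arrays and quantile scaling of the mean intensity of both channels between arrays (Aquantile), the sterol enzymes had a median difference of -0.18 in the sample channel, with 13 of 17 negative, and of 0.20 in the reference channel, with 15 of 17 positive. Over all genes the medians were 0.0005 and -0.03. With the sample channel alone quantile-normalized, the sterol median was -0.06 and 10 of 17 were negative. For Hsd17b7 the sample channel differed by -0.05 and the reference channel by 0.53. For Tm7sf2 they differed by -0.89 and 0.11, and for Dhcr7 by -0.53 and 0.01. The channel that holds no sample RNA thus differed more than the sample channel for Hsd17b7, and less for Tm7sf2 and Dhcr7. It also differed more for Fdps (sample -0.19, reference 0.36), Idi1 (-0.05 and 0.20), Mvk (-0.09 and 0.22) and Cyp51 (0.15 and 0.22). For the other sterol enzymes it differed less, though by little for Msmo1 and Fdft1.

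The sterol enzymes moved together from array to array within a group. Control 3 read higher than the mean of controls 1 and 2 for 17 of 17 sterol enzymes, by a median of 0.73, where 43.1% of all genes were higher on control 3. It was the highest of all 6 arrays for 94.1% of the sterol enzymes, against 28% of all genes. Mutant 1 read lower than the mean of mutants 2 and 3 for 16 of 17, with a median difference of -0.44, where 52.7% of all genes were lower. It was the lowest of all 6 arrays for 76.5%, against 26.9% of all genes. Since the genes of a pathway share their samples, these shares describe 2 arrays and are not tests.

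Between the 4 arrays that remain, mutants 2 and 3 against controls 1 and 2, the sterol enzymes had a median difference of -0.005, and 8 of 17 were positive. The shift of control 3 from controls 1 and 2 was larger in size than that of mutants 2 and 3 for 14 of 17 sterol enzymes (82.4%, against 64.6% of all genes). Without control 3 the median was -0.08 and 11 of 17 were negative. Among those 4 arrays Tm7sf2 stood at -0.53 and Dhcr7 at -0.37. Cyp51 (0.29), Mvk (0.22), Hsd17b7 (0.19), Sqle (0.19) and Pmvk (0.19) turned positive, and Lss (0.41), Fdft1 (0.39) and Nsdhl (0.25) were positive in both comparisons.

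**Figure D3:**
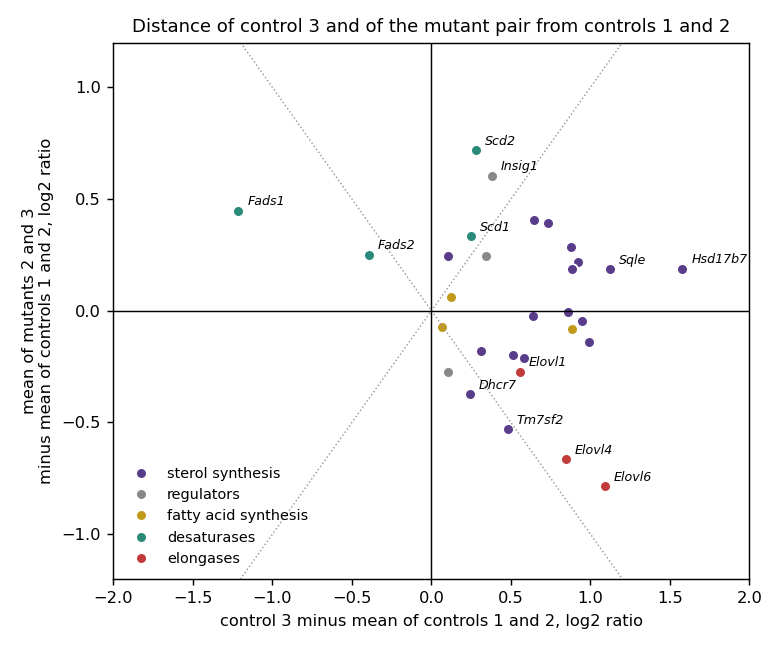
Each point is 1 of the 30 genes: the distance of control 3 from the mean of controls 1 and 2 (horizontal) and of the mean of mutants 2 and 3 from the same mean (vertical), both in log2 ratio. Dotted lines mark equal size. All 17 sterol enzymes lie to the right of 0, the 3 elongases lie low on the right, and the 4 desaturases lie above 0.

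Of the regulators, Srebf2, whose product drives the sterol genes, read -0.16, 0.01 and 0.03 in controls and -0.48, -0.33 and -0.37 in mutants. The mutants lay below the controls, with a difference of -0.36 (SE 0.12, unadjusted p = 0.0217, adjusted p = 0.148 by limma). Srebf1, whose product drives the fatty acid genes, had 0.14 (SE 0.14) with overlapping groups. Insig1, itself an SREBP target, read 0.08, -0.002 and 0.42 in controls and -0.41, 0.65 and 0.63 in mutants. Mutant 1 was the lowest of all arrays and the other 2 mutants the highest, so the difference of 0.13 had an SE of 0.31.

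The 10 fatty acid genes did not share a direction: 6 differences were negative and 4 positive, with a median of -0.06. The 4 desaturases were positive and the 3 elongases negative. The groups did not overlap for these 7 genes, as for 38.0% of all genes. This split went with the level of the log2 ratio as well as with the step. The elongases had positive control means (Elovl1 3.11, Elovl4 7.16, Elovl6 4.45). Those of the desaturases were negative (Scd1 -0.36, Scd2 -2.28, Fads1 -3.67, Fads2 -1.80). Each of the 7 thus lay nearer the reference in the mutants. Whether the split belongs to step or level was not tested. The groups also did not overlap for Acly and Fasn. All 7 desaturases and elongases kept their sign under each of the 20 other ways of processing that were tried, and among mutants 2 and 3 against controls 1 and 2. Most of these could not turn it. Where groups do not overlap, leaving out, averaging, weighting or blocking arrays leaves the sign as it is. Each of these genes had a single probe, so filters on dim probes and the mean over probes changed nothing either. Only alternatives that changed the values themselves, such as the sample channel alone, could have turned the sign.

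Elovl6, which lengthens the chain that fatty acid synthase makes, had the largest difference of the 30 genes. Its log2 ratios were 4.06, 4.12 and 5.18 in controls and 1.97, 3.34 and 3.27 in mutants (probe at chr3:129341248-129341307). Controls 1 and 2 agreed closely, as did mutants 2 and 3, while control 3 lay 1.09 above its pair and mutant 1 differed from its own by -1.33. The difference was -1.59 (SE 0.47, 95% interval -2.72 to -0.46, 3.01-fold), with an adjusted p of 0.123 by limma. Without both outlying arrays it was -0.78.

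Elovl4, which makes the very long chains of skin barrier lipids, read 6.93, 6.82 and 7.72 in controls and 6.20, 6.32 and 6.10 in mutants (probe at chr9:83672645-83672704). The 3 mutants lay within 0.22 of each other, and control 3 stood 0.84 above the other controls. The difference was -0.95 (SE 0.25, adjusted p = 0.103 by limma). With control 3 left out, Elovl4 was the 1 gene of the 30 that passed, lower in the mutants by limma with a difference of -0.67 (SE 0.11, adjusted p = 0.034), in a fit where 7.22% of all genes passed. Elovl1, an elongase of saturated very long chains, read 2.84, 3.01 and 3.48 in controls and 2.38, 2.79 and 2.52 in mutants (difference -0.55, SE 0.21, adjusted p = 0.180).

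The desaturases went the other way. Scd2, a stearoyl-CoA desaturase, read -2.52, -2.22 and -2.09 in controls and -0.82, -1.69 and -1.62 in mutants (probe at chr19:44381024-44381083). Mutant 1 was the highest array, and the lowest mutant lay 0.40 above the highest control. The difference was 0.90 (SE 0.26, 1.87-fold, adjusted p = 0.122 by limma). Scd1, from the same gene cluster, read -0.49, -0.40 and -0.20 in controls and -0.19, -0.10 and -0.12 in mutants. Control 3 and mutant 1 differed by 0.01 there, so the groups only just parted (difference 0.23, SE 0.12, adjusted p = 0.316).

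Fads1 and Fads2, the desaturases of polyunsaturated fatty acids, also had every mutant above every control. Fads1 read -3.16, -3.37 and -4.48 in controls and -2.80, -2.87 and -2.77 in mutants, a difference of 0.86 (SE 0.34, adjusted p = 0.197 by limma). Here control 3 was the lowest array, so leaving it out brought the difference down to 0.45 (SE 0.11, adjusted p = 0.0669). Fads2 read -1.59, -1.75 and -2.06 in controls and -1.28, -1.42 and -1.41 in mutants, a difference of 0.43 (SE 0.16, adjusted p = 0.170). In the RefSeq gene table the desaturases sit in 2 clusters of chromosome 19: Fads1 is next to Fads2, which is next to Fads3, and Scd1 to Scd4 follow each other.

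The 3 genes that make the saturated chain had differences of -0.42 to -0.02. Acly, which supplies acetyl-CoA from citrate, read 1.61, 1.65 and 2.52 in controls and 1.41, 1.59 and 1.51 in mutants (difference -0.42, SE 0.26, adjusted p = 0.359). Without control 3 the difference was -0.13 (SE 0.10). Acaca, the carboxylase of the committed step, had -0.02 (SE 0.11) with overlap. Fasn, fatty acid synthase, varied least: it read 1.19, 1.20 and 1.26 in controls and 1.11, 1.12 and 1.12 in mutants. The groups did not overlap, yet the difference was -0.10 (SE 0.10, adjusted p = 0.583).

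Further probes measure the same genes again, since 17 of the 30 genes had several. Each desaturase and each elongase had a single probe, so no further probe bears on those genes. All 56 probes were tested at the probe level, 35 with a negative difference, and 15 of the 26 further probes had the sign of the probe used for their gene. One passed, where 2.73% of all probes did. It is a probe for Nsdhl at chrX:70186412-70186471, placed by the files on a cDNA clone rather than the reference transcript. It read 3.48, 3.57 and 3.46 in controls and 2.77, 2.88 and 2.87 in mutants, lower by limma with a difference of -0.66 (SE 0.11, adjusted p over probes 0.0391). The other 3 Nsdhl probes had differences of 0.04, 0.16 and 0.37 with overlapping groups, so the probes of this gene disagree.

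Probes also disagreed for Idi1 and differed in size for Fasn. The second Idi1 probe read 2.73, 2.72 and 2.74 in controls and 2.93, 3.17 and 3.22 in mutants, a difference of 0.38 (SE 0.12, adjusted p over probes 0.139), opposite in sign to the one used. The files place both Idi1 probes on chromosome 2, while the RefSeq table has the gene on chromosome 13, so what they measure is uncertain. The second Fasn probe read 1.43, 1.52 and 1.35 in controls and 0.98, 0.95 and 0.88 in mutants (difference -0.50, SE 0.11, adjusted p over probes 0.0711). Further probes opposite in sign to the one used, with overlapping groups, were found for Hmgcs1 (0.23), Fdft1 (-0.11), Insig1 (-0.42), Srebf2 (0.08), Acly (0.03) and Acaca (0.10) and for Cyp51 (0.003 and 0.19). Another Acaca probe, at 0.12, had every mutant above every control. Of these genes, Srebf2 (-0.41 and -0.76), Hmgcs1 (-0.29) and Acaca (-0.21) also had further probes with the sign of the one used.

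Other genes of the pathways, from wider lists, gave no call by limma. Of 22 other sterol genes 13 differences were positive and 9 negative, with a median of 0.09. By limma 5 of the 22 had an unadjusted p under 0.05, against 4870 of all 20401 genes, a similar share. Idi2 had 0.82 (SE 0.27), Insig2 -0.38 (SE 0.14) and the sterol exporter Abcg1 0.75 (SE 0.28), with adjusted p of 0.144 to 0.181.

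Of 32 other fatty acid genes tested of 34 listed, 14 differences were positive and 18 negative, with a median of -0.15. By limma 6 of the 32 had an unadjusted p under 0.05, not a larger share than the 4870 of all 20401 genes. The 2 acyltransferases that finish triglycerides had opposite signs: Dgat1 0.71 (SE 0.15, adjusted p = 0.0669 by limma) and Dgat2 -1.12 (SE 0.31, adjusted p = 0.114). Fads3, the neighbour of Fads2, had 1.35 (SE 0.51) and the citrate carrier Slc25a1 0.39 (SE 0.15), each with every mutant above every control. These genes were named for their small p. The list's other desaturases and elongases are not given here, so Fads3 does not stand for them.

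Markers of the cells that such sheets can hold moved with the arrays too. The 6 markers of basal squamous cells were above background on every array and 7 or 8 of 8 suprabasal ones, as the labelled tissue should have. In bulk RNA, fewer cells of a type and less RNA per cell cannot be told apart. Markers of glandular stomach were present as well, with 14 of 14 above background on 5 arrays and 10 on control 3. Of these 14, 11 had positive differences (median 0.38), and of 10 markers of fibroblasts and muscle 8 (median 0.40), none past the test. With the channels apart, the glandular list was lower in the mutants in sample signal (median -0.30, 9 of 14 negative). Its reference signal was lower still (median -0.47, 4 of 14 positive). For fibroblasts and muscle the medians were 0.56 for the sample (8 of 10 positive) and 0.01 for the reference. Between mutants 2 and 3 and controls 1 and 2 the direction of the log2 ratio turned, with 1 of 14 glandular markers positive (median -0.22) and 4 of 10 of fibroblasts and muscle (median -0.13). For the glandular markers the median difference of control 3 from controls 1 and 2 was -3.12, and for the fibroblast and muscle markers -2.07. Their summed sample signal was 3236 on control 3 against 2304000 and 2434000 on the other controls for glandular stomach, and 67570 against 834900 and 977400 for fibroblasts and muscle. In the mutants these sums ran from 373800 to 1795000 and from 460700 to 910400, with mutant 1 the lowest both times. Control 3, the array with the highest sterol values, was thus also the one with the least signal from these tissues, though it was also the dimmest array. The sums are not normalized, and its low signal was not particular to these tissues. Its sum for basal squamous markers was 351300, against 1168000 and 1270000 on the other controls. It was also the lowest array for suprabasal, immune, dividing and sebocyte markers, but not for fat cell markers. The part of tissue content or of dimness in the sterol values was not tested.

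The epithelial markers moved as well. Of 8 suprabasal markers 7 had negative differences (median -0.94), with control 3 above controls 1 and 2 by a median of 0.90, and of 6 basal markers 5 were negative (median -0.49). The reference channel was higher in the mutants for both lists, by medians of 0.53 and 0.37. In the sample channel the suprabasal median was -0.45, and the basal median was 0.15 with 5 of 6 positive. All 9 markers of dividing cells had every mutant above every control (median difference 1.63), where 19.7% of all genes did. For these 9 markers control 3 differed from the other controls by a median of -1.32. No marker of these 3 lists passed: the smallest adjusted p by limma was 0.0614 for Ivl (-1.26, SE 0.26), 0.0627 for Cdc20 (1.51, SE 0.31) and 0.0837 for Krt15 (-0.56, SE 0.13). Of 9 immune markers 8 were positive (median 0.72), and Cd68 (1.49, SE 0.17, adjusted p = 0.0167) and Csf1r (0.75, SE 0.14, adjusted p = 0.0488) rose by limma. Between mutants 2 and 3 and controls 1 and 2, 6 of the 9 were positive, with a median of 0.06. The part of all these markers in the values of the 30 genes was not tested.

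Fat cells and sebocytes make fatty acids in quantity, so their markers were set beside the fatty acid genes. Of 10 fat cell markers 7 could be tested, 6 with a negative difference (median -0.16), and Adipoq and Lep, the hormones of fat cells, were above background on no array. The summed signal was 231800 to 322500 in controls and 217100 to 467600 in mutants. Of 9 sebocyte markers 6 could be tested, 3 in each direction (median -0.09), and Dgat2l6 and Mc5r were above background on no array, with a summed signal of 118300 to 184800 in controls and 170900 to 288600 in mutants. None of these markers passed the test.

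Because the sterol enzymes moved together across arrays, the stretch before each gene's start was read for letters that SREBP and its partners are known to use. RefSeq promoter windows (250 bases before the start to 50 after, build GRCm38.p6) were matched for 24 of the 30 genes: 14 sterol enzymes, the 3 regulators and 7 fatty acid genes. Fdps, Fdft1, Sqle, Scd1, Scd2 and Fads1 had none in the table used. The motifs, each searched on both strands, were the sterol response element TCACNCCAC, the box CCAAT that binds NF-Y, the box GGGCGG that binds Sp1 and the E-box CACGTG. Matches were counted whether or not they overlapped another motif. The 200 bases before the start are given for Hmgcs1, which holds a sterol response element, for Tm7sf2, Sc5d and Ebp, the sterol enzymes with the largest differences among those with 1 window, and for Elovl6 and Elovl4, the elongases that differed most. Capitals mark the sterol response element and each CCAAT, which reads ATTGG where it lies on the other strand.
Hmgcs1 (chr13:119690151-119690350, plus strand): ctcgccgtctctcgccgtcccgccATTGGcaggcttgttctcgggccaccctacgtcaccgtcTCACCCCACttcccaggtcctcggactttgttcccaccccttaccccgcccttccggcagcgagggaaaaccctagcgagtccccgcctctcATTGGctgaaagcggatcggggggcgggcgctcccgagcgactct
Tm7sf2 (chr19:6067851-6068050, minus strand): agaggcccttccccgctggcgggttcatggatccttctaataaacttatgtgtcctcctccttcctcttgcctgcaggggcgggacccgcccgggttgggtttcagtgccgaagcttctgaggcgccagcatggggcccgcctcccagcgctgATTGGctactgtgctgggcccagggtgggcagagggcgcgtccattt
Sc5d (chr9:42264301-42264500, minus strand): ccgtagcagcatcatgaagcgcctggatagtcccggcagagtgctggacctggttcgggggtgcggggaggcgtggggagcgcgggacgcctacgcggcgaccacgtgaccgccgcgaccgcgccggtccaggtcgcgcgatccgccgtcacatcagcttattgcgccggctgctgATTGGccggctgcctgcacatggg
Ebp (chrX:8193513-8193712, minus strand): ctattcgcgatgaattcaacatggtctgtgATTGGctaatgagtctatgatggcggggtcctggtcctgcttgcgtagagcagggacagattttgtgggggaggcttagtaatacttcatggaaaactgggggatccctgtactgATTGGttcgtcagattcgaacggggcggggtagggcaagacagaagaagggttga
Elovl6 (chr3:129532186-129532385, plus strand): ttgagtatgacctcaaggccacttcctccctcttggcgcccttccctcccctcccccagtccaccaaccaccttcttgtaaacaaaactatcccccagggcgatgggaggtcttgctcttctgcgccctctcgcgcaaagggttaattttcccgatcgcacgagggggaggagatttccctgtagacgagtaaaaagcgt
Elovl4 (chr9:83806306-83806505, minus strand): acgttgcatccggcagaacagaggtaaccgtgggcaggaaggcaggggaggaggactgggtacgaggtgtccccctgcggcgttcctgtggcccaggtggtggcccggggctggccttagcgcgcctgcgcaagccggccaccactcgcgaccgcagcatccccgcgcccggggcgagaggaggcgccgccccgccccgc

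In these windows Hmgcs1 has the sterol response element with its first base at -137, counted from the gene's start, between boxes at -176 and -45. Ebp has 2 boxes, at -170 and -55, and Tm7sf2 and Sc5d have 1 each, at -47 and -24. The 200 bases given for Elovl6 and Elovl4 hold neither motif, which says only that these letters are not in them. The full window of Elovl4 has a CCAAT box after the start, at 26.

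**Figure D4:**
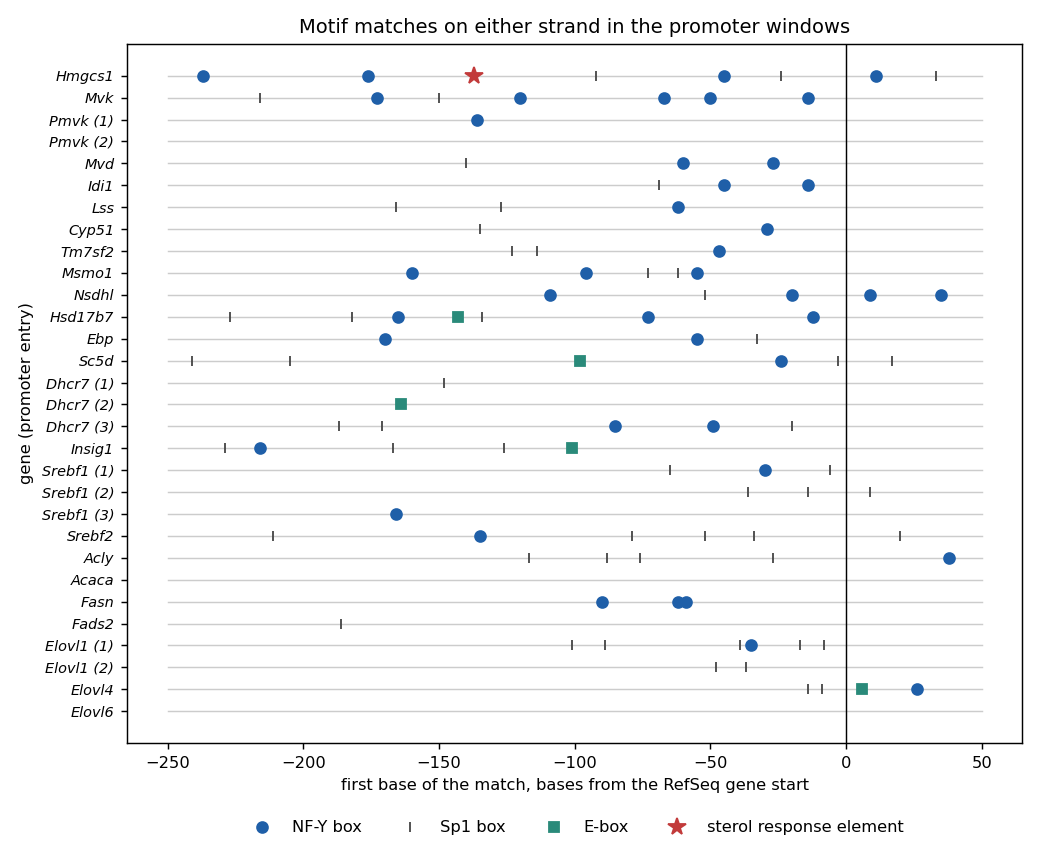
Matches of the 4 motifs on either strand in each RefSeq promoter window of the 24 matched genes, by distance of the first base from the gene's start (genes with several windows have a row for each). The NF-Y box (CCAAT on either strand) lies in 14 of 17 sterol windows and 4 of 8 fatty acid windows, and the sterol response element in 1, that of Hmgcs1.

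The 14 sterol enzymes had 17 windows. Of these, 14 (82.4%) held a CCAAT box, where 38.2% of 21263 windows of protein-coding genes and 37.4% of all 32851 windows in the table did. A GGGCGG box lay in 14 of 17, against 46.2% of protein-coding windows. An E-box lay in 3 (17.6%, against 7.84%) and the sterol response element in 1 (5.88%, against 1.19%). Of the 8 windows of fatty acid genes, 4 held a CCAAT box, 5 a GGGCGG box and 1 an E-box, and of the 5 windows of regulators 4, 4 and 1. The windows were 60.3% G and C for the sterol enzymes, 62.6% for the fatty acid genes and 65.6% for the regulators, against 56.2% for protein-coding genes. Each of the 14 sterol enzymes had a CCAAT box in at least 1 window, so its presence could not set some of them apart from others. Tm7sf2 and Dhcr7, with differences of -1.0 and -0.54, thus had one, and so did Lss and Nsdhl, with 0.11 and 0.04.

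The number of the 30 genes that passed moved with the weight of single arrays. With array weights estimated by limma, 18 passed in a fit where 56.7% of all genes did: 5 sterol enzymes lower, 3 sterol enzymes higher, 3 elongases lower, the 4 desaturases higher and the 3 regulators. Control 3 had a weight of 0.08 and mutant 3 of 7.67 in that fit. With control 3 and mutant 1 both left out, 11 passed in a fit where 37.8% of all genes did. In that fit Tm7sf2, Dhcr7, Elovl4 and Elovl6 were lower, and Fdft1, Lss, Cyp51, Insig1, Scd1, Scd2 and Fads1 higher, by limma. It rests on 2 near-identical arrays a group, so its spread is that within those pairs, and the shares of the 30 genes passing in both fits lie beside large shares of all genes.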

How the data were processed

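The authors deposited the scanner's intensity values: mean, background and processed signals of both channels. Feature Extraction wrote them, in version 10.5.1.1 (control 3: version 10.7.3.1), with probe coordinates of mm9, per the file headers, while the submitters' processing notes name version 9.1. The authors' deposited table of log2 ratios covers the same arrays, with its centring unknown. Set against the scanner files, it held log2 of sample over reference, its slopes were 0.978 to 1.17 and its medians of 0.052, 0.06 and 0.026 for controls and 0.042, 0.043 and 0.039 for mutants.

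Background was corrected by normexp (offset 50) and arrays were normalized by loess in limma 3.58.1 (R 4.3.3), with no weight for control spots and outlier spots, which were then left out. A probe was tested if at least 3 of 6 arrays had it well above background in Cy5, and a gene by its brightest probe. The RefSeq gene table (GRCm38.p6) gave names to 32728 of 41174 probes, 272 had no name and the rest kept the files' names. Of the genes tested 7066 had several probes. Groups were compared with lmFit and eBayes (two-sided, 4 residual degrees of freedom) and p-values adjusted over all genes by Benjamini-Hochberg. The channels alone were compared after loess and Aquantile. The procedure was tested on simulated data with independent noise on each array. They held no slide effect, near-identical pairs or outlying array, so that test does not bear on these. The number of arrays limits the precision. P-values reflect only how these samples vary. All 30 genes are named with values, of the wider pathway lists up to 4 genes with the smallest p (1 of them is not reported here), of the marker lists (fat cells, sebocytes, glandular stomach, fibroblasts and muscle, immune, basal, suprabasal and dividing cells) up to 3. The genes and lists were chosen with earlier results of these data known. The annotation of mm9 was not used here. Alternatives were the processed signals, another offset, scaling, the sample channel alone, the deposited table, filters on dim probes, the mean over probes, slide, scan day and replicate number as blocks, array weights, averaged pairs and arrays left out.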

Additional observations from a re-analysis of the deposited data

How the results depend on the processing

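Of the 30 genes, 18 kept their sign under each of the 20 alternatives and 12 changed it in at least 1. Of 600 values, 51 were reversed (2 of them, both of Cyp51, also passed the threshold), 29 kept their sign and passed a threshold they had missed, and 520 kept sign and side. The desaturases stayed positive and the elongases negative in each alternative on the ratio or the sample channel, though Elovl1 was -0.043 in the sample channel alone and Elovl4 -0.366 with arrays scaled to one spread. Their groups did not overlap and each had a single probe. Their sign could thus turn only with the processed signals, the other offset, scaling, the sample channel alone or the deposited table. In the reference channel alone 2 of 17 sterol enzymes were negative and 1 of 4 desaturases positive.

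The count of all genes called was 577. It was 325 with the processed signals, 304 with the sample channel alone, 4 with slide as a random block, 1473 with scan day as a block, 11559 with array weights, 0 with the near-identical pairs averaged (limma, 2178 at an unadjusted p under 0.05) and 7700 without control 3 and mutant 1. Leaving out 1 array gave 34 (mutant 2) to 1473 (control 3), with 57 without control 1, 43 without control 2, 612 without mutant 1 and 36 without mutant 3. Of the 30 genes, 1 was called with scan day as a block, 18 with array weights, 11 without control 3 and mutant 1, and 0 to 1 with 1 array left out. Array weights left 9 of 17 sterol enzymes negative, and so did leaving out control 3 and mutant 1, with a median of -0.0051. Averaging the pairs made 17 of 17 negative (median -0.589), as did leaving out control 1 (median -0.510).

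Signs reversed as follows, with adjusted p of 0.0265 to 0.9995 by limma. Offset 16 gave Fdft1 -0.0036 and the deposited table -0.0003. Scaling gave Cyp51 0.0601, Acaca 0.0845 and Fasn 0.0036. The sample channel alone gave Pmvk 0.0259, Idi1 0.12, Cyp51 0.213, Hsd17b7 0.0122 and Insig1 -0.0729. The mean over probes gave Idi1 0.0628, Fdft1 -0.0514, Cyp51 0.0404, Nsdhl -0.0212 and Insig1 -0.145. The slide block gave Fdft1 -0.078. The scan day block gave Pmvk 0.129, Sqle 0.036, Cyp51 0.224 and Acaca 0.0232, the values without control 3. Array weights gave Mvk 0.183, Pmvk 0.159, Sqle 0.121, Cyp51 0.221, Hsd17b7 0.138 and Acaca 0.107. Averaged pairs gave Fdft1 -0.192, Lss -0.0378, Nsdhl -0.0635 and Insig1 -0.109. Leaving out control 3 and mutant 1 gave Mvk 0.219, Pmvk 0.185, Sqle 0.186, Cyp51 0.287, Hsd17b7 0.189 and Acaca 0.061. With 1 array left out, Fdft1 ran from -0.131 to 0.247, Lss from -0.0555 to 0.326, Nsdhl from -0.0829 to 0.213, Insig1 from -0.0518 to 0.479, Pmvk from -0.317 to 0.129, Sqle from -0.560 to 0.036, Cyp51 from -0.239 to 0.224 and Acaca from -0.0665 to 0.0232. The cause of the other reversals was not tested.

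The replicate number did not pair the arrays (correlations of same-numbered arrays 0.0058, 0.0187 and 0.125). With it as a replicate block 131 genes were called and 0 of the 30.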

Other observations

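Across probes, the deposited table's column for mutant 1 followed the scanner file of mutant 3 more closely (r = 0.973, against 0.886 with its own), while the column labelled mutant 3 followed the file of mutant 1 (r = 0.969) more than its own (r = 0.881). The columns of the controls and of mutant 2 followed their own files best (r = 0.924 to 0.977). These correlations are across probes of 1 array, which are not independent. Group differences do not depend on the order of the mutants. What is said here of mutant 1, such as its low sterol values, follows the scanner files, since it could not be settled which of the sources is misnumbered.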
